A study of Mus musculus with 3 samples.

Results

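The genes described here were the tubulin genes Tuba1a, Tuba1b, Tuba1c, Tuba4a, Tubb2a, Tubb2b, Tubb3, Tubb4b, Tubb5 and Tubb6, taken by name from a table of gene expression in MC3T3-E1, a line of preosteoblasts from mouse calvaria. They were 10 of the 15287 genes listed, 4 for α-tubulin and 6 for β-tubulin, and all 10 were above the limit used for analysis, 1 FPKM, in every library. The CTL library came from untreated cells. The Ti library came from a 24 h exposure to titanium particles at 10 μg per square centimetre. For Ti+Se-Met the cells received selenomethionine (Se-Met) at 5 μM along with those particles, also for 24 h. Each condition had 1 library, so the differences below could not be set against replicate error, and no test across samples was run. All comparisons with CTL shared the same CTL library.

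Microtubules are built from heterodimers of 1 α-tubulin and 1 β-tubulin, and the cytosolic chaperonin CCT, prefoldin and the tubulin cofactors fold and join the subunits. Mammalian cells hold several genes for each subunit, the isotypes, which differ mainly in the acidic tail at the end of the protein, where many of the enzymes that modify tubulin act. Tubulin mRNA is also under autoregulation, in which the factor TTC5 reads the first residues of a nascent tubulin chain and starts decay of its mRNA when free tubulin is abundant. In bone-forming cells microtubules serve secretion, cell division and cell shape. Tubb5 and its protein are in wide use as references in PCR and on immunoblots. The methods of this study list antibodies to β-tubulin and to GAPDH for immunoblots, and GAPDH primers for PCR.

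The coding starts are shown because they encode the residues that autoregulation reads. They were taken from GENCODE M21 transcripts on the build GRCm38, 5′ to 3′, with the first 12 coding bases in capitals. Tubb6 is named only.
Tuba1a: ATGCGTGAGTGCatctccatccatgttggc
Tuba1b: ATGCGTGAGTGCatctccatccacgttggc
Tuba1c: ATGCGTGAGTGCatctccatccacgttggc
Tuba4a: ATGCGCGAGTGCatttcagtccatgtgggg
Tubb2a: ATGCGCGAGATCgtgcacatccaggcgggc
Tubb2b: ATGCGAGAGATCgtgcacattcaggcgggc
Tubb3: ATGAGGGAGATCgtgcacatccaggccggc
Tubb4b: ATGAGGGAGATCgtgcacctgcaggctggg
Tubb5: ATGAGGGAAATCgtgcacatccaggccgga
The 4 α genes had 2 distinct sequences over these 12 bases and the 6 β genes had 5, but all α genes encoded 1 and the same start of the protein and all β genes another. Within each class, the isotypes therefore differed over these 12 bases in silent positions alone.

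The coding ends of β genes are shown because they encode the acidic tails. The last 60 coding bases, stop codon included, are given 5′ to 3′, with capitals at each base that differed from Tubb5 in a pairwise alignment of these ends.
Tubb2a: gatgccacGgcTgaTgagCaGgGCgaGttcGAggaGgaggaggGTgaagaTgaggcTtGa
Tubb2b: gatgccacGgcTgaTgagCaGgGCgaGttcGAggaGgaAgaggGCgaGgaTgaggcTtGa
Tubb3: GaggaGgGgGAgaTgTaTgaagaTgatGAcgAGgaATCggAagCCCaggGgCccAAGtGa
Tubb4b: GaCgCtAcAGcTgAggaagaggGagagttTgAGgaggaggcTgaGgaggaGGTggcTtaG
Tubb5: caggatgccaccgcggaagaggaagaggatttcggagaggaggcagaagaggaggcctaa
Tubb2a differed from Tubb5 at 16 bases of this stretch, Tubb2b at 18, Tubb4b at 19 and Tubb3 at 26. Tubb3, the isotype in wide use as a marker of neurons, thus had the most differences of the 4 genes compared with Tubb5 here.

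Over the whole coding sequence, Tuba1a and Tuba1b shared 98.3% of aligned bases, Tuba1b and Tuba1c 97.9%, and Tubb2a and Tubb2b 96.5%. This likeness bears on the values, since a read from a stretch shared by several genes cannot be placed. Windows of 100 bases that were also found in another gene's transcripts made up 65.8% of the Tuba1a transcript, 73.0% of Tuba1b and 53.4% of Tuba1c. They made up 36.9% of Tubb2a, 27.7% of Tubb2b and 30.6% of Tubb4b, whose main partner was the pseudogene Tubb4b-ps1, not listed in the table. Of Tuba4a, 46.7% of windows lay in the overlap with Stk16, a kinase gene on the opposite strand, and whether the counting used strand is not stated. Tubb3, Tubb5 and Tubb6 shared no window of this length, so their values are the ones least open to misplaced reads. The levels of the other 7 genes are uncertain in this respect, and sums over near-identical copies are given beside them.

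The values are FPKM, fragments per kilobase of transcript and scaled to the mapped fragments of the library, so levels can be set side by side between genes. Depth was read from the steps that single fragments leave in low values. CTL was put at 14350000 fragments, Ti at 14800000 and Ti+Se-Met at 10050000. At these depths 60.2%, 52.9% and 51.2% of the low values used lay on a step. At 1 fixed depth 18% would do so by chance. Each depth was chosen as the one with the largest share, so these shares do not test it. Differences are given in log2(FPKM + 1), where the added 1 makes those of low genes smaller, and folds are plain ratios of FPKM. The 95% intervals of folds, shares and ratios rest on the estimated fragments. They hold counting error alone and speak of the libraries sequenced, not of the conditions. Of the osteoblast markers, Col1a1, Col1a2, Spp1 and Runx2 were well above 1 FPKM in every library, but Alpl was at 1.51 FPKM in CTL and 0.20 in both others, and Sp7, Ibsp and Bglap stayed under 1 FPKM. Against CTL, Col1a1 was at 0.266-fold with Ti and 0.361-fold with Ti+Se-Met, Col1a2 at 0.372-fold and 0.467-fold, and Spp1 at 2.94-fold and 3.69-fold, and the part of these shifts in the tubulin values was not tested. The macrophage markers Ptprc, Adgre1 and Itgam were not listed, and Cd68 and Csf1r stayed at no more than 0.42 and 0.10 FPKM. Lyz2 was at 26.72 FPKM in CTL, 14.76 with Ti and 12.42 with Ti+Se-Met.

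As deposited, 8 of the 10 tubulin genes were higher in Ti than in CTL and 10 of 10 in Ti+Se-Met. Of all genes analysed and above 0 in both libraries, 55.3% and 51.0% were higher. Tuba1a was lower and Tubb2b level in Ti, and in TPM Tubb2a was lower than CTL in both treated libraries. In bulk RNA, a change in how many cells of a type were present and a change in RNA per cell cannot be told apart. Tuba1c, Tuba4a and the β genes Tubb3, Tubb5 and Tubb6 were at least 2-fold higher in Ti+Se-Met than in CTL, beside 2.64% of genes analysed. No member was 2-fold lower in any comparison. Over all genes analysed, 3.64% were 2-fold lower in Ti and 3.32% in Ti+Se-Met against CTL, and 0.0629% between the treated libraries. In CTL the order of levels was Tuba1b, Tubb5, Tuba1a, Tubb4b, Tubb2a, Tuba1c, Tubb6, Tubb3, Tuba4a and Tubb2b. Of these neighbours only Tubb4b and Tubb2a did not differ beyond counting error, with a ratio of 1.04 (0.967 to 1.11). With Ti, the neighbours Tubb3 and Tuba4a lay within counting error of each other, at a ratio of 1.13 (0.985 to 1.30), and with Ti+Se-Met Tubb2a and Tubb6 did, at 1.04 (0.957 to 1.12). In Ti+Se-Met Tubb5 stood first, 1.12-fold (1.09 to 1.15) above Tuba1b.

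**Figure D1:**
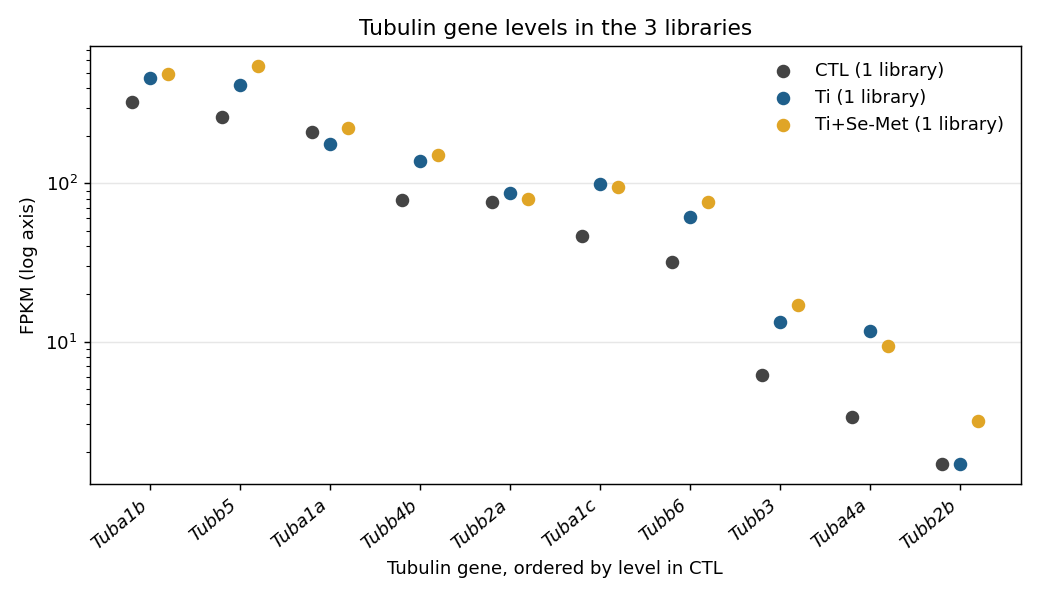
FPKM of the 10 tubulin genes on a log axis, ordered by their level in CTL; each point is 1 library (grey CTL, blue Ti, yellow Ti+Se-Met). Tubb5 goes from 263.17 in CTL to 553.98 in Ti+Se-Met, while the Tubb2a points lie between 75.8 and 86.53.

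Among the α genes, Tuba1b, an isotype found in most tissues, was the most abundant in all 3 libraries. It was at 328.5 FPKM in CTL, 465.3 with Ti and 495.01 with Ti+Se-Met. Both treated libraries were thus higher, by 1.42-fold (95% interval 1.38 to 1.46) and 1.51-fold (1.46 to 1.56). Tuba1a, the isotype known for the developing brain, was at 211.04 FPKM in CTL, 177.97 with Ti and 223.7 with Ti+Se-Met. As deposited it was the only member lower in Ti than in CTL, at 0.843-fold (0.810 to 0.878), and it stayed lower there under all 4 ways of scaling the libraries. Against CTL its Ti+Se-Met value was 0.08 higher on the log2 scale as deposited and 0.11 lower after scaling to TPM, where all values of a library sum to 1 fixed total, so its direction there was not settled. In Ti+Se-Met it was 1.26-fold (1.20 to 1.31) above Ti.

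Tuba1c was at 46.49 FPKM in CTL, 99.01 with Ti and 94.54 with Ti+Se-Met, the steepest difference of the 3 near-identical α genes. It was 2.13-fold (1.99 to 2.28) higher in Ti than in CTL and 2.03-fold (1.89 to 2.19) higher in Ti+Se-Met. The treated libraries did not differ from each other beyond counting error, with a fold of 0.955 (0.898 to 1.01). Tuba1a, Tuba1b and Tuba1c together came to 586.03 FPKM in CTL, 742.28 with Ti and 813.25 with Ti+Se-Met. This sum was 1.27-fold (1.24 to 1.30) and 1.39-fold (1.36 to 1.42) above CTL, and it too rests on how reads that match several genes were treated. The 3 genes lie on chromosome 15, at chr15:98949837-98953703, chr15:98931425-98934565 and chr15:99029891-99038110 in GRCm38.

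Tuba4a, an α isotype known from muscle, brain and platelets, was a minor gene with the largest relative difference of the family. It was at 3.34 FPKM in CTL, 11.65 with Ti and 9.40 with Ti+Se-Met, on about 129, 464 and 254 fragments. The Ti library was 3.49-fold (2.86 to 4.27) and the Ti+Se-Met library 2.81-fold (2.27 to 3.50) above CTL, and only 0.638% of the 11137 genes analysed had a larger log2 difference between Ti and CTL. Between the treated libraries it was lower in Ti+Se-Met, at 0.807-fold (0.689 to 0.941). Tuba4a lies at chr1:75214228-75219865 in GRCm38. Its neighbour Stk16 was at 24.84, 38.91 and 32.89 FPKM, or 1.57-fold (1.45 to 1.70) higher in Ti than in CTL. Reads of these genes cannot be told apart in the overlap if strand was not used, and the part of Stk16 in the Tuba4a values was not tested.

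Among the β genes, Tubb5, the main β isotype of most dividing cells, was the most abundant, at 263.17 FPKM in CTL, 420.96 with Ti and 553.98 with Ti+Se-Met. The 3 values are in steps, with CTL lowest and Ti+Se-Met highest. It ranked 223rd of all genes in CTL and 130th in Ti+Se-Met. The folds were 1.60 (1.56 to 1.64) for Ti and 2.11 (2.05 to 2.16) for Ti+Se-Met against CTL, and 1.32 (1.29 to 1.35) between the treated libraries. These are log2 differences of 0.68, 1.07 and 0.40, which 11.5%, 2.14% and 3.16% of the genes analysed exceeded. Tubb5 lies at chr17:35833921-35838306 in GRCm38 and has 4 exons.

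Tubb4b, a broadly expressed isotype also used in cilia, was at 78.57 FPKM in CTL, 139.11 with Ti and 150.58 with Ti+Se-Met, or 1.77-fold (1.67 to 1.88) and 1.92-fold (1.80 to 2.04) above CTL. Tubb6, a less abundant β isotype of many non-neuronal cells, was at 31.81, 61.07 and 76.57 FPKM, with folds of 1.92 (1.76 to 2.10) and 2.41 (2.19 to 2.64). Both genes thus resembled Tubb5 in direction, and both were higher again in Ti+Se-Met than in Ti, Tubb4b by 1.08-fold (1.02 to 1.14) and Tubb6 by 1.25-fold (1.16 to 1.35). Tubb2a, a β isotype abundant in brain, stood apart from them, at 75.8, 86.53 and 79.36 FPKM. Its difference from CTL was 0.19 on the log2 scale with Ti and 0.07 with Ti+Se-Met, but in TPM both were below CTL, at −0.04 and −0.13, and under upper-quartile scaling Ti+Se-Met was level with CTL. The fold of Ti+Se-Met against CTL, 1.05 (0.970 to 1.13), was within counting error.

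Tubb2b was the least abundant member, at 1.69 FPKM in CTL, 1.69 with Ti and 3.16 with Ti+Se-Met, on 49, 51 and 65 estimated fragments. Its fold of 1.87 (1.29 to 2.80) in Ti+Se-Met against CTL was the least precise of the family. With Tubb2a it summed to 77.49, 88.22 and 82.52 FPKM, so the pair was 1.06-fold (0.989 to 1.15) above CTL in Ti+Se-Met. Tubb3 was at 6.16 FPKM in CTL, 13.2 with Ti and 16.92 with Ti+Se-Met, or 2.14-fold (1.76 to 2.61) and 2.75-fold (2.25 to 3.36) above CTL. Of 10 neuronal markers 5 were listed, and these 5 summed to 0.4 FPKM in CTL, 0.23 with Ti and 0.48 with Ti+Se-Met, with the defining marker Rbfox3 not listed. Tubb3 mRNA was therefore present, and higher in the treated libraries, where the other neuronal markers were at or near 0.

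**Figure D2:**
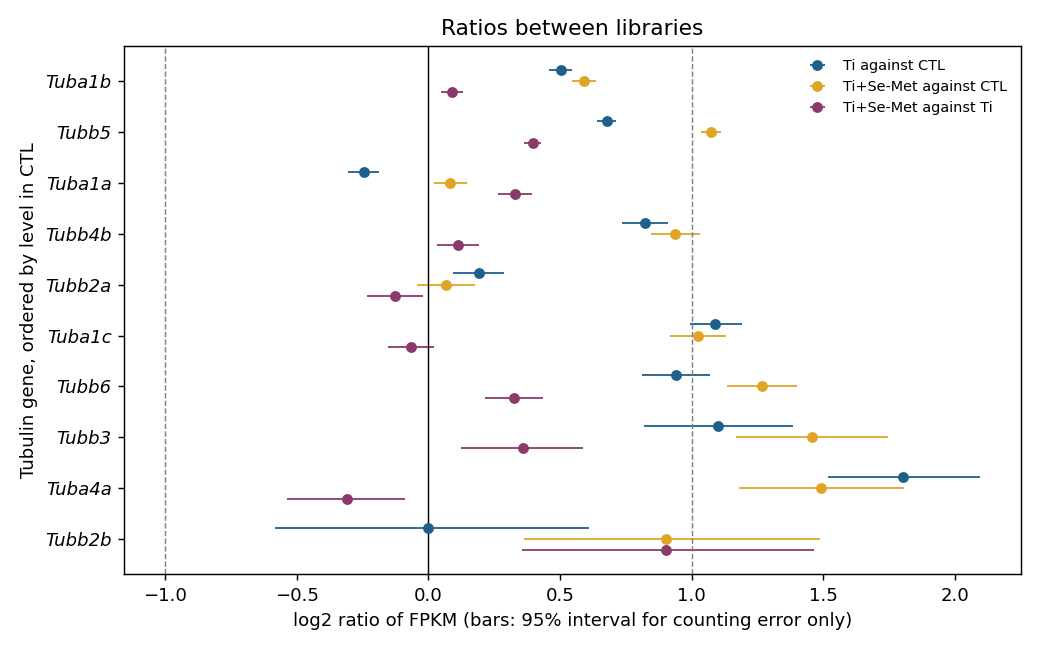
Log2 ratio of FPKM for each tubulin gene in Ti against CTL (blue), Ti+Se-Met against CTL (yellow) and Ti+Se-Met against Ti (purple); points are ratios of single libraries, bars are 95% intervals for counting error only and dashed lines mark 2-fold. Tuba4a lies farthest right, Tuba1a is the only gene left of 0 in Ti against CTL, and the Tubb2b bars are the widest.

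Counted on the log2(FPKM + 1) scale, Tuba1c and Tuba4a were at least 2-fold higher in Ti than in CTL, 2 of 10 members, where 3.63% of the 11137 genes were 2-fold higher and 3.64% 2-fold lower. At 1.5-fold the count was 6 of 10, beside 15.5% of all genes. Tubb3, whose plain ratio was above 2, was at 0.99 on this scale. In Ti+Se-Met against CTL 5 of 10 members were at least 2-fold higher, beside 2.64% of genes higher and 3.32% lower, and 8 of 10 at 1.5-fold, beside 10.4%. Between the treated libraries 0 of 10 passed 2-fold, where 0.162% of genes were 2-fold higher and 0.0629% lower, and Tubb2b alone passed 1.5-fold, beside 0.844%.

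The median log2 difference of the 10 members was 0.75 in Ti and 0.97 in Ti+Se-Met against CTL, beside 0.08 and 0.01 over all genes analysed. Between the treated libraries it was 0.22, beside −0.06. Scaling to TPM moved the median of all genes to −0.14 and −0.17 against CTL, and the members' medians to 0.52 and 0.78. Under TPM 1 and 3 members passed 2-fold against CTL. Shares of all genes higher or past a fold were computed as deposited only. Counts in TPM and under other scalings, here and below, therefore have no such share beside them. Most markers of dividing cells were also higher than in CTL. Of 8 proliferation markers, 7 were higher in Ti and 8 in Ti+Se-Met as deposited, beside 55.3% and 51.0% of genes above 0 in both libraries. In TPM 6 and 8 were higher. Mki67 was the only one lower in Ti as deposited, at 17.33 FPKM in CTL, 16.29 with Ti and 27.18 with Ti+Se-Met. Top2a was at 29.95, 33.66 and 48.65 FPKM, and in TPM both were lower in Ti than in CTL. The medians of the 8 were 0.69 and 0.92 on the log2 scale as deposited. Their summed levels were 184.67 FPKM in CTL, 302.2 with Ti and 349.75 with Ti+Se-Met. Mcm2, a subunit of the replicative helicase, and Aurka, a mitotic kinase, were past 2-fold in both, and Ccnb1, a mitotic cyclin, in Ti+Se-Met. In TPM the Aurka difference in Ti was 0.89 and the Ccnb1 difference in Ti+Se-Met 0.96, under 2-fold. The part of proliferation in the tubulin values was not tested.

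The balance of α and β tubulin mRNA differed between the libraries. The 4 α genes summed to 589.37 FPKM in CTL, 753.93 with Ti and 822.65 with Ti+Se-Met. The 6 β genes summed to 457.2, 722.56 and 880.57 FPKM. The β sum was thus 1.58-fold and 1.93-fold above CTL in the treated libraries, and the α sum 1.28-fold and 1.40-fold. The α to β ratio was 1.29 (1.26 to 1.32) in CTL, 1.04 (1.02 to 1.06) with Ti and 0.934 (0.914 to 0.955) with Ti+Se-Met from the values as deposited. The 3 intervals do not overlap, but they hold counting error alone and do not speak of the conditions, which had 1 library each. A ratio within a library does not depend on the scaling between libraries, but this one depends on how reads that match several genes were treated, which is not stated. Leaving such reads out would lower the α sum more than the β sum, so whether the true ratio in Ti+Se-Met was below 1 was not tested. Together the 10 genes held 0.233% of all FPKM in CTL, 0.281% with Ti and 0.331% with Ti+Se-Met.

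Within the α class, Tuba1a had a smaller share in the treated libraries and Tuba1b and Tuba1c a larger one. Tuba1a made up 35.8% (35.0 to 36.6) of α FPKM in CTL, 23.6% (23.0 to 24.2) with Ti and 27.2% (26.4 to 27.9) with Ti+Se-Met. Tuba1b went from 55.7% in CTL to 61.7% and 60.2%, and Tuba1c from 7.89% to 13.1% and 11.5%. These shares rest on reads from near-identical genes. Tuba4a, at 0.567%, 1.55% and 1.14%, remained a minor α isotype.

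Within the β class Tubb5 held the largest share in every library, with 57.6% (56.7 to 58.5) in CTL, 58.3% (57.6 to 59.0) with Ti and 62.9% (62.2 to 63.7) with Ti+Se-Met. Its share in CTL and Ti did not differ beyond counting error, although its level did. The Tubb2a share went from 16.6% in CTL to 12.0% in Ti and 9.01% in Ti+Se-Met. Tubb4b stayed between 17.1% and 19.3%, Tubb6 between 6.96% and 8.70%, and Tubb3 between 1.35% and 1.92%. Tubb2b was under 0.4% in every library.

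**Figure D3:**
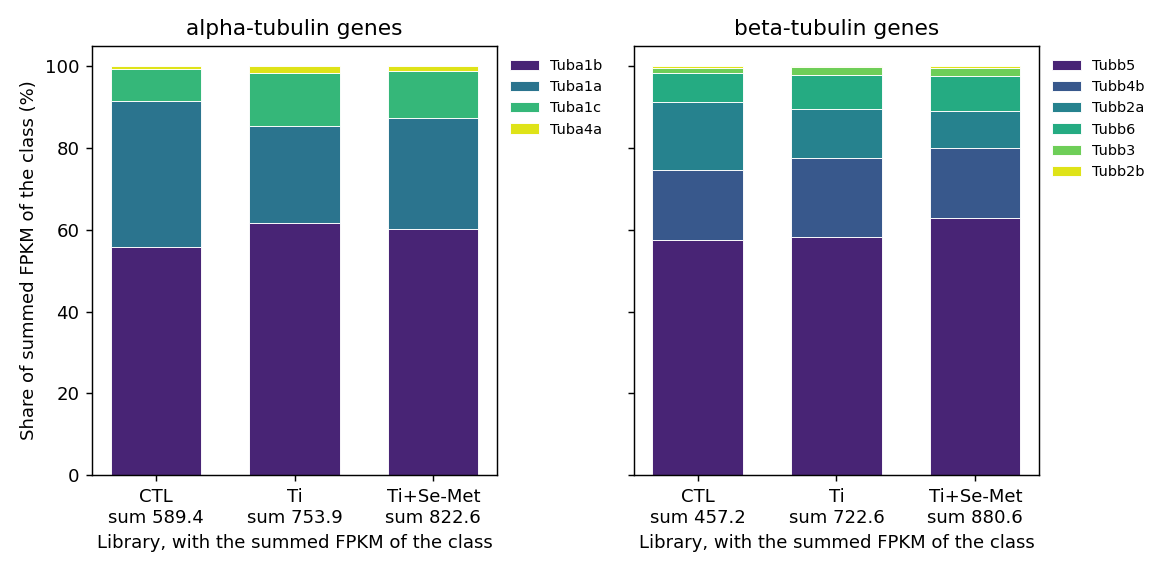
Share of each gene in the summed FPKM of the α-tubulin genes (left) and of the β-tubulin genes (right), in percent, with 1 stacked bar per library and the class sum under it. The Tuba1a band narrows from 35.8% in CTL to 23.6% in Ti, and the Tubb2a band from 16.6% in CTL to 9.01% in Ti+Se-Met.

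Tubb5 was then set beside 18 other genes in use as references. Its spread, the highest minus the lowest log2(FPKM + 1) over the 3 libraries, was 1.07, the largest of the 19 as deposited, and it was also the largest in TPM (0.87), under median-of-ratios scaling (1.09) and under upper-quartile scaling (1.00). As deposited, 92.8% of all genes analysed had a smaller spread, and the median was 0.44. B2m, the light chain of MHC class I, had the smallest spread at 0.10, with 1059.35 FPKM in CTL, 987.02 with Ti and 1039.58 with Ti+Se-Met. In TPM the smallest was Hprt, and under the other scalings Tbp. Within the tubulin family Tubb2a was the steadiest, with a spread of 0.19.

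**Figure D4:**
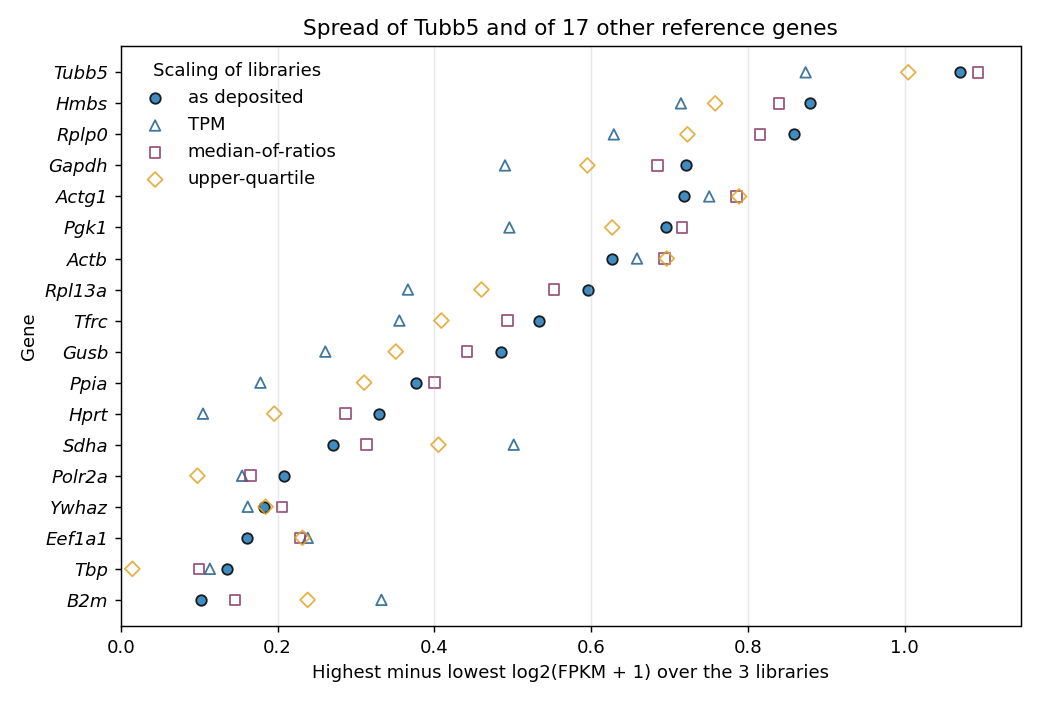
Spread over the 3 libraries (highest minus lowest log2(FPKM + 1)) of Tubb5 and 17 of the other reference genes, with 1 symbol for each scaling of the libraries. Tubb5 is the highest of those plotted under each scaling, between 0.87 and 1.09, and B2m is the lowest as deposited.

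Gapdh and Actb were not level, with spreads of 0.72 and 0.63. Gapdh, a glycolytic enzyme, was at 1594.46 FPKM in CTL, 2628.23 with Ti and 2523.18 with Ti+Se-Met, and Actb, β-actin, at 860.95, 725.77 and 1121.05. The ratio of Tubb5 to Gapdh was therefore nearly the same in CTL (0.165) and Ti (0.160), while it was 1.37-fold (1.33 to 1.41) higher with Ti+Se-Met than with Ti alone. Over Actb, Tubb5 was 1.90-fold (1.84 to 1.96) higher in Ti than in CTL, and over B2m 1.72-fold (1.65 to 1.78). Over Gapdh the same comparison gave 0.970-fold (0.942 to 1.00), so the Tubb5 difference between Ti and CTL depended on the gene it was divided by.

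Used as the denominator, Tubb5 would lower most genes, and so would Gapdh. Divided by Tubb5, the median log2 ratio of all genes was −0.59 in Ti and −1.06 in Ti+Se-Met against CTL. Of these genes 14.4% and 3.27% came out higher, beside 55.3% and 51.0% as deposited. Over Gapdh the medians were −0.63 and −0.65, and 12.4% and 9.86% came out higher. Over Actb 70.7% and 23.0% did, and over B2m 62.0% and 53.2%. Such shares follow from the level differences of the reference gene itself. For Ctnnb1, which encodes β-catenin and was chosen here after its values were seen, Ti+Se-Met stood to Ti at 1.02-fold as deposited, 0.774 over Tubb5 and 1.06 over Gapdh. For Runx2, an osteoblast transcription factor chosen in the same way, it was 1.34 as deposited, 1.02 over Tubb5 and 1.40 over Gapdh. These are ratios of mRNA levels and say nothing of tubulin protein.

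The promoters of Tubb5 and Tubb4b, 2 β genes that were higher in both treated libraries, and of Tuba1a, which was lower in Ti, are shown from RefSeq on GRCm38.p6, from 250 bases before to 50 after the start site. They are chr17:35838252-35838551, chr2:25224653-25224952 and chr15:98953452-98953751, all on the minus strand and written 5′ to 3′ along the gene. Capitals mark every match, on either strand, to the core promoter element TATAAA, to the element CCAAT, bound by the factor NF-Y, to the GC box GGGCGG, to the E-box CACGTG, or to TTTGAA, a core found in promoters of cell-cycle genes. Matches to different motifs may overlap. The motifs were chosen with the values known.
Tuba1a: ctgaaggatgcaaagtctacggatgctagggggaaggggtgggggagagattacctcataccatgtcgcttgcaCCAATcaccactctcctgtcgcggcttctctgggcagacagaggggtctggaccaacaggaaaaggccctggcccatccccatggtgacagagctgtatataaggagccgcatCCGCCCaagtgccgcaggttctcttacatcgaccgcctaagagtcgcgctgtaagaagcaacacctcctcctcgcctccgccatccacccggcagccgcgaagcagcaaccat
Tubb4b: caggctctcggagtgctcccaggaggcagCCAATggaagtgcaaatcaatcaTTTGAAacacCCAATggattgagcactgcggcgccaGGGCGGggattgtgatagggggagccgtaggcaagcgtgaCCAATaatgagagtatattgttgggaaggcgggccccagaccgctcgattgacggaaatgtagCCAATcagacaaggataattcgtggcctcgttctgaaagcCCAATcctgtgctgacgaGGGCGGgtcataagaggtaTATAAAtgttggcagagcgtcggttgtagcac
Tubb5: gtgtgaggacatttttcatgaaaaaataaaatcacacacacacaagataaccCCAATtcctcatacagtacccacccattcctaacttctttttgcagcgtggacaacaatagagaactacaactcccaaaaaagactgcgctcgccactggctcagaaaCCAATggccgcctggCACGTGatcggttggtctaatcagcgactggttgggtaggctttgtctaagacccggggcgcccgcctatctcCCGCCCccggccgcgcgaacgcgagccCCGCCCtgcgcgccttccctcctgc
Tubb4b held 5 CCAAT matches, Tubb5 held 2, Tuba1a, Tuba1c and Tubb3 held 1 each, and Tuba1b, Tuba4a and Tubb2a held 0. A relation of these counts to the differences was not tested. Of the 8 members with an entry, 5 had a CCAAT match and 7 a GGGCGG match, beside 37.4% and 35.7% of all 32851 promoters. TATAAA matched in 2 of 8 members (13.6% of all), CACGTG in Tubb5 alone (7.15%) and TTTGAA in Tubb4b alone (17.9%). A match of letters is a description and not a site in use.

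Other genes of the microtubule system are given by list. Of 10 other tubulins 5 were listed, and none was past 2-fold. Tubg1, the γ-tubulin of microtubule-organizing centres, was the most abundant of them at 15.69 FPKM in CTL, 29.12 with Ti and 28.41 with Ti+Se-Met, and Tubd1, δ-tubulin, followed at 5.42, 5.20 and 4.29. The 8 genes of the γ-tubulin ring complex were within 2-fold in every comparison, with medians of 0.07 and 0.01 on the log2 scale against CTL. Mzt1, a small adaptor of the complex, was at 28.17, 20.31 and 22.47 FPKM, and Mzt2 at 16.57, 26.57 and 16.77.

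Most genes of the folding machinery were higher in the treated libraries than in CTL. Over all genes analysed and above 0 in both libraries, 55.3% were higher in Ti and 51.0% in Ti+Se-Met as deposited. All 8 CCT subunits were higher in Ti than in CTL under each of the 4 scalings, with a median of 0.58 as deposited, and all 8 were higher in Ti+Se-Met as deposited, with a median of 0.38, but 7 of 8 in TPM. All 8 were lower in Ti+Se-Met than in Ti as deposited, and 7 of 8 under each other scaling. Their median was −0.16 as deposited and −0.09 under median-of-ratios scaling, beside −0.06 and −0.002 over all genes analysed. As deposited, 38.5% of genes above 0 in both treated libraries were higher in Ti+Se-Met than in Ti, so a lower value was the common direction. The tubulin genes differed from CCT here, with 7 of 10 members higher in Ti+Se-Met than in Ti as deposited and in TPM, and 8 of 10 under the other scalings, where Tuba1c was level with Ti. Cct2 was at 265.26 FPKM in CTL, 379.21 with Ti and 371 with Ti+Se-Met, and Tcp1 at 156.52, 202.7 and 187.11. Of 13 tubulin cofactors and prefoldin subunits, 11 were higher in Ti and 10 in Ti+Se-Met than in CTL as deposited, but 8 and 10 in TPM. Pfdn6, a prefoldin subunit, was at 48.48, 111.19 and 73.63 FPKM, and its log2 difference of 1.18 in Ti was the only one past 2-fold, which it no longer was in TPM.

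The genes of tubulin autoregulation were within 2-fold. Ttc5, which encodes the factor that recognizes nascent tubulin, was at 18.3 FPKM in CTL, 17.3 with Ti and 12.97 with Ti+Se-Met. Cnot11, which encodes a subunit of the CCR4-NOT deadenylase, was at 8.67, 12.57 and 9.95. Scaper, the remaining gene of this list, was at 6.76, 4.54 and 4.73.

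Of the 14 tubulin-modifying enzymes analysed, 7 were higher and 7 lower than CTL in each treated library as deposited. Over all genes analysed and above 0 in both libraries, 55.3% were higher in Ti and 51.0% in Ti+Se-Met. Agtpbp1, a carboxypeptidase that trims glutamates from tubulin tails, was at 9.49 FPKM in CTL, 4.19 with Ti and 5.42 with Ti+Se-Met, and its log2 difference of −1.02 in Ti was the only one past 2-fold as deposited. In TPM Atat1, an α-tubulin acetyltransferase at 17.1, 9.53 and 8.9 FPKM, was also past 2-fold lower, at −1.03 in Ti and −1.10 in Ti+Se-Met. Of 19 microtubule-associated proteins analysed 0 were past 2-fold as deposited and 12 were lower in Ti than in CTL. Over all genes analysed, 3.64% were 2-fold lower in Ti as deposited. In TPM, where the median of all genes was −0.14 in Ti against CTL, 3 of the 19 were 2-fold lower there. Dctn1, a dynactin subunit, was at 78.71, 67.54 and 67.65 FPKM, and Map1lc3b, an LC3 of autophagosomes, at 57.73, 89.92 and 72.32. Neither list was higher as a whole in the treated libraries.

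Stathmin and a depolymerizing kinesin did stand with the tubulins. Stmn1, which binds free tubulin dimers, was at 63.6 FPKM in CTL, 97.1 with Ti and 130.84 with Ti+Se-Met, and was past 2-fold in Ti+Se-Met against CTL (log2 difference 1.03). Kif2c, a mitotic kinesin that takes tubulin off microtubule ends, was at 4.93, 11.12 and 14.36 FPKM, with log2 differences of 1.03 and 1.37. In TPM, Stmn1 and Kif2c remained higher than CTL, and 1 of the 7 genes analysed from this list was past 2-fold in Ti+Se-Met. Both are also known as genes of dividing cells.

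**Figure D5:**
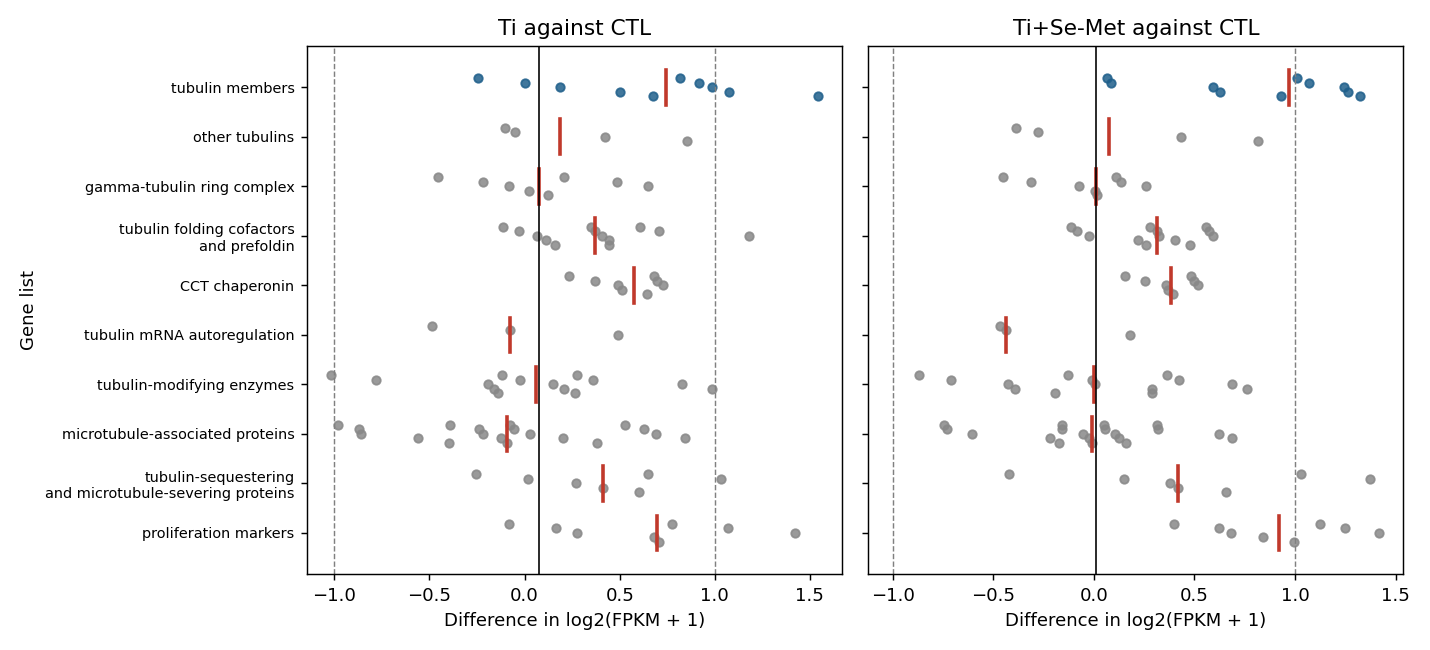
Difference in log2(FPKM + 1) for each gene of the tubulin family (blue) and of the other lists (grey), in Ti against CTL (left) and Ti+Se-Met against CTL (right). Red bars are list medians, the black line is the median of all genes analysed and dashed lines mark 2-fold; the tubulin medians, 0.75 and 0.97, lie to the right of those of the other lists, followed by the proliferation markers at 0.69 and 0.92.

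The genes whose pair of log2 differences from CTL lay nearest to that of Tubb5, among 1669 genes with a mean of at least 50 FPKM, were Ecm1, Lmna, Stmn1, Rpl38 and Atp5g2, at distances of 0.056 to 0.110. Ecm1, a secreted matrix protein, was at 386.42 FPKM in CTL, 642.29 with Ti and 814.48 with Ti+Se-Met. Lmna, which encodes lamins A and C, was at 245.72, 405.08 and 496.61. The nearest to Tuba4a were Vegfa, Ccn5, Gpnmb, Mrps18b and Rcc2, at distances of 0.057 to 0.118 among 1670 genes. Vegfa, an angiogenic growth factor, was at 31.22, 94.37 and 79.08 FPKM. These genes were chosen by their values in the same 3 libraries, so their likeness is a description.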

How the data were processed

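RNA was sequenced from MC3T3-E1 cells in 3 libraries, 1 per condition. Per the study's methods, reads with adapters or of low quality were removed, the rest aligned with HISAT2 and genes counted with HTSeq. The submitters' processing notes also name StringTie, SAMtools and the build mm9. The deposited FPKM values, made by the authors in a way not given in the sources used here, are rounded to 2 decimals. From them, differences in log2(FPKM + 1) were computed (Python 3.11.15, pandas 2.3.3, scipy 1.17.1) over the 11137 of 15287 genes with at least 1 FPKM in at least 1 library. Count models were not applied to FPKM.

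Depth was estimated from steps in low values of 453 genes with 1 transcript of 350 to 1000 bases, after subtracting 150 bases. Fold intervals are exact conditional binomial, and those of shares, sums and ratios use the delta method. Transcripts came from GENCODE M21 on GRCm38 and were matched by RefSeq transcript identifier. Promoters came from RefSeq, where 8 of 10 members had an entry, and were matched by symbol. Both were used for lengths, loci and sequences only. Sequences were aligned with Biopython 1.88. The steps were tested on simulated data.

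All 10 members were named. Of the other lists, genes past 2-fold in any comparison were named, or the 2 most abundant. Of the references, Gapdh, Actb and those of smallest spread were named, while 1 that falls under the rule and some sequences are not reported here, and so were the 5 genes nearest to Tubb5 and to Tuba4a. Stk16, Ctnnb1, Runx2, Atat1, Mki67, Top2a and Scaper fall outside this rule and were chosen after their values were seen. Members and lists were chosen with earlier results of these data known. The settings varied were the pseudocount (0.1 and 5), the filter (none), the threshold (1.5-fold), 3 other scalings, and other sets of members for shares.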

Additional observations from a re-analysis of the deposited data

How the results depend on the processing

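No paired analysis was possible because the 3 conditions had 1 library each, which also left none to be dropped in turn. The number of tubulin genes at least 2-fold higher in Ti than in CTL was 2, and became 3 where 0.1 was added, 1 with a pseudocount of 5, in TPM and under upper-quartile scaling, and 6 at 1.5-fold. In Ti+Se-Met against CTL it was 5, and became 2 with a pseudocount of 5, 3 in TPM and 8 at 1.5-fold. Between the treated libraries it was 0, and 1 at 1.5-fold. Shares of all genes were not computed under the other pseudocounts and scalings, so these counts cannot be set beside them. The members' median log2 difference of 0.75 in Ti against CTL became 0.69 with a pseudocount of 5, 0.52 in TPM and 0.61 under upper-quartile scaling. That of 0.97 in Ti+Se-Met against CTL became 0.84 with a pseudocount of 5 and 0.78 in TPM, and that of 0.22 between the treated libraries 0.29 under upper-quartile scaling.

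For Tubb5, 0.68 in Ti against CTL became 0.45 in TPM, 0.63 under median-of-ratios and 0.54 under upper-quartile scaling. Its 1.07 in Ti+Se-Met against CTL became 0.87 in TPM and 1.00 under upper-quartile scaling, as did its spread, and 0.40 in Ti+Se-Met against Ti became 0.46 under median-of-ratios and 0.47 under upper-quartile scaling. The Tuba1b share in Ti, 61.7%, was 62.7% without the least abundant member of each class. None of the members' medians or Tubb5 differences changed sign. Among single members, Tuba1a in Ti+Se-Met against CTL went from 0.08 to −0.11 in TPM. Tubb2a went from 0.19 to −0.04 in Ti and from 0.07 to −0.13 in Ti+Se-Met against CTL. A larger pseudocount shrinks low genes by construction, and the causes of the shifts between scalings were not tested. Depth limits Tubb2b most, with 49 to 65 fragments, and Ti+Se-Met was the shallowest library.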
